A study of Mus musculus with 8 samples.

Results

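A set of 10 inflammatory and epithelial alarm cytokine genes was followed in lung RNA from a mouse model of chronic obstructive pulmonary disease (COPD): Il6, Tnf, Il1a, Il1b, Il18, Il33, Csf1, Csf2, Csf3 and Tgfb1. They were listed by name, with no measured value in the rule but with earlier results of these data known, and all 10 of these 10 genes were present among the 52636 gene identifiers counted. The study asked how TJ-41, a herbal medicine mixed into the feed, acts on a lung injured by elastase and endotoxin. RNA sequencing of lung tissue gave 8 libraries, which fall into 4 groups of 2. All mice were wild-type C57BL/6 males, and the diets began at 8 weeks of age. Of the control mice, those with the control diet received phosphate-buffered saline (PBS) in place of both agents and plain MF feed. Those with the TJ-41 diet received PBS and MF feed holding 2% TJ-41. Of the COPD mice model, called model mice from here on, those with the control diet received porcine pancreatic elastase (PPE) into the trachea at 10 weeks, then lipopolysaccharide (LPS) from 12 weeks, with MF feed. Those with the TJ-41 diet received PPE and LPS in the same way, with 2% TJ-41 in the feed. The day of RNA collection after LPS and the number of mice behind each library are not given in the sources used here. Since nothing states that the 2 libraries of a group came from separate animals, the p-values measure only the spread between these libraries, which may be technical. PPE destroys alveolar walls by direct proteolysis within days, which limits the model beside a disease that smoke builds up over years.

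The cytokines act at different steps of lung inflammation. TNF and the IL-1 cytokines are early signals that bind receptors on epithelium, endothelium and leukocytes and switch on NF-κB target genes, among them chemokines and Il6. IL-1α and IL-33 are stored in cells and act as alarms when barrier cells are damaged, whereas IL-1β and IL-18 are made as inactive precursors that caspase-1 cleaves in the inflammasome. The colony-stimulating factors M-CSF, GM-CSF and G-CSF, from Csf1, Csf2 and Csf3, maintain and recruit macrophages and neutrophils, and in the lung GM-CSF is needed for alveolar macrophages to mature. TGF-β1, from Tgfb1, is secreted in a latent form that integrins and proteases release, and it drives matrix production and restrains immune cells. For several of these proteins release is controlled after transcription, so an RNA level is not a measure of the active cytokine.

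The libraries held 18767295 to 20888042 counts, and 20546 genes, 9 of the 10 cytokine genes among them, passed the filter on low counts; Csf3 did not. Levels are given in CPM, that is, counts scaled to a common library total with trimmed mean of M-values (TMM) factors. The 2 libraries of model mice fed control diet differed most from each other, with an SD of 0.798 for their log2 differences across genes against 0.394 to 0.469 in the other groups. In bulk lung RNA, fewer cells of a type and less RNA per cell cannot be told apart. Markers of lung epithelium, endothelium, fibroblasts and the resident leukocytes were detected in every group, and none of the marker genes listed was at 0 in all 8 libraries.

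The 10 genes spanned a wide range of levels, with Il33 at the top and Csf3 near the limit of detection. Scaled for length, as CPM per kilobase of merged exon (SD over 8 libraries), Il33 reached 48.6 ± 11.2, Il18 17.2 ± 2.88, Csf1 16.0 ± 2.06, Il1b 11.5 ± 3.61 and Tgfb1 10.2 ± 1.63. A lower tier followed, with Csf2 at 3.28 ± 0.51, Il1a at 2.51 ± 0.416, Tnf at 1.33 ± 0.41, Il6 at 0.378 ± 0.138 and Csf3 at 0.0459 ± 0.0608 CPM per kilobase. The ranges over libraries did not meet between Il33 and Il18, between Tgfb1 and Csf2, between Tnf and Il6, or between Il6 and Csf3. Within the tier of Il18, Csf1, Il1b and Tgfb1 the ranges of neighbours overlapped, and Il18 exceeded Csf1 in 6 of 8 libraries, Csf1 exceeded Il1b in 7 and Il1b exceeded Tgfb1 in 5. Csf2 and Il1a overlapped as well, as did Il1a and Tnf, although Il1a was above Tnf in 8 of 8 libraries. The alarm cytokine of the barrier was thus the leading transcript of the set in each library, and the acute cytokines Tnf and Il6 were among the lowest.

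**Figure D1:**
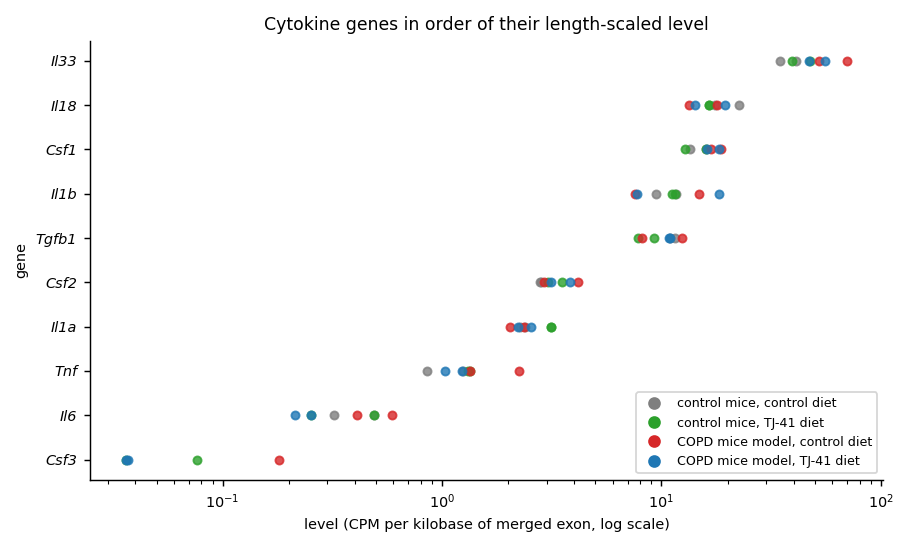
The horizontal axis is the level of each gene in CPM per kilobase of merged exon on a log scale, and the vertical axis lists the 10 genes by mean level. Each point is 1 library coloured by group; libraries at 0 counts of Csf3 are not drawn, and the Il33 points lie from 34.7 to 70.3, right of all others.

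The stretch before the start of transcription was read for the 9 genes with an entry in the RefSeq promoter table (GRCm38.p6), which has none for Csf3. The sites searched on both strands were the κB site bound by NF-κB, spelled GGG, any 2 bases, TT, any base, CC, and the AP-1 letters TGANTCA, in a window from 250 bases before to 50 after the start. A κB match occurred in 2 of the 9 genes, Il6 and Csf1, beside 4.79% of all 32851 promoter windows, and an AP-1 match in 2, Il6 and Il1a, beside 7.81% of them. Il6 held both motifs, with the κB match starting 44 bases before the start of transcription and the AP-1 match 249 bases before it. The κB match of Csf1 began 154 bases before the start, on the opposite strand, and the AP-1 match of Il1a 12 bases before it. Neither window of Il33, nor those of Tnf, Il1b, Il18, Csf2 and Tgfb1, contained these letters, which says nothing of factors bound through other letters or elsewhere. Windows follow the RefSeq start, and those of Csf2 (chr11:54249850-54250149) and Il18 (chr9:50554450-50554749) lie wholly before the gene positions given below. For these genes the bases next to that gene position were therefore not read. The 250 bases before the start are shown for the 3 genes with a match, because these are the genes in which the letters occur, 5′ to 3′ on the strand of the gene, with the matches in capitals. They lie at chr5:30012864-30013113 (plus strand) for Il6, chr3:107760470-107760719 (minus strand) for Csf1 and chr2:129309973-129310222 (minus strand) for Il1a.
Il6: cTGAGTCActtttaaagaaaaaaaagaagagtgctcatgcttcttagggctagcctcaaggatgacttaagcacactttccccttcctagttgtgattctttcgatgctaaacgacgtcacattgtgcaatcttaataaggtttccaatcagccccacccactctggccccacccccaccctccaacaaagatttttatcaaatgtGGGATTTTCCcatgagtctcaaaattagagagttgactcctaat
Csf1: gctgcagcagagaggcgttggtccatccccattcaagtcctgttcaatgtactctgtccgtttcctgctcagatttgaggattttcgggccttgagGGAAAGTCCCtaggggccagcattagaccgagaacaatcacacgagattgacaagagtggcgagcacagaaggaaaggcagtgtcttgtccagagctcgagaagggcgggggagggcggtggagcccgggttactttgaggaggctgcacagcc
Il1a: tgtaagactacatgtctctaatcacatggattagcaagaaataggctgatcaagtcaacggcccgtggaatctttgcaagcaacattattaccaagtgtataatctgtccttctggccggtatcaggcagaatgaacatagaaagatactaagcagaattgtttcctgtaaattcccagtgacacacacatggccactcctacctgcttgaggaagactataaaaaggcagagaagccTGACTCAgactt

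The first question was which of these genes differed between model mice and control mice. None of the 9 tested genes was called at a false discovery rate under 0.05 with a log2 fold change beyond 1 by the edgeR quasi-likelihood test, nor by DESeq2, on either diet or over both. On the control diet 0.122% of all genes tested were called, on the TJ-41 diet 0.0779%, and over both diets 0.443%. At an unadjusted p under 0.05 there was 1 cytokine gene on the control diet, 0 on the TJ-41 diet and 1 over both diets, against 7.7%, 6.56% and 10.4% of all genes; in both cases it was Il33. In each of the 3 comparisons 6 of the 9 estimates lay above 0, as did those of 51.0%, 49.8% and 49.8% of all genes. Over both diets their median on the log2 scale was 0.15, and that of all genes tested was -0.0017.

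**Figure D2:**
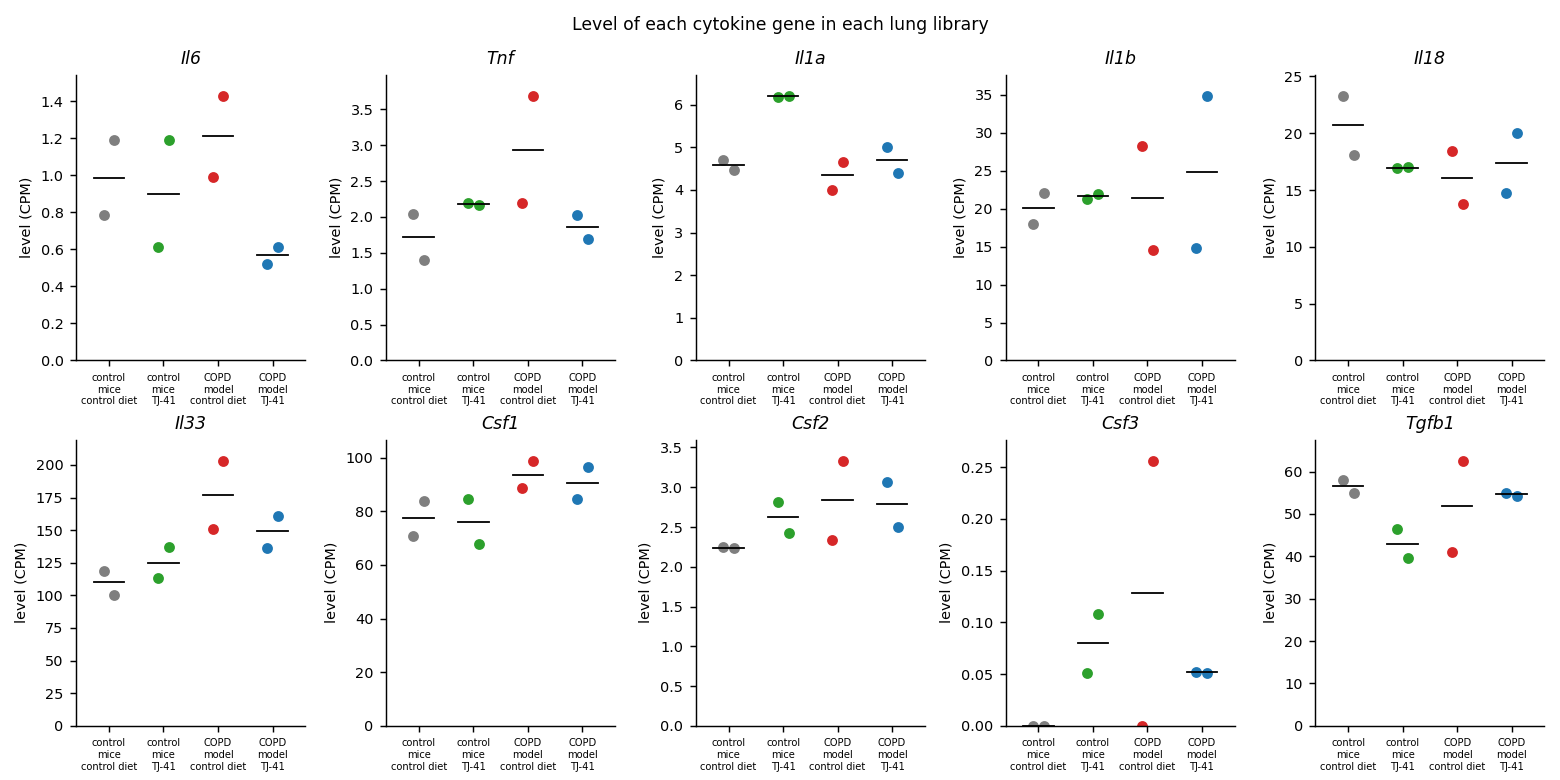
Each panel plots 1 gene, with the level in CPM on a vertical axis that starts at 0 and the 4 groups on the horizontal axis. Points are the 2 libraries of a group and the line is their mean; in 7 of the 10 panels the highest point is the same library, replicate 2 of model mice fed control diet.

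Il33 showed the largest difference relative to its error. The gene lies at chr19:29925114-29960718 (GRCm38, plus strand), and the cytokine is kept in the nucleus of epithelial and endothelial cells until damage frees it. Its level was 119 and 100 CPM in control mice fed control diet, 113 and 137 CPM in control mice fed TJ-41, 151 and 203 CPM in model mice fed control diet and 136 and 161 CPM in model mice fed TJ-41. On the control diet both libraries of model mice lay above both of control mice, while on the TJ-41 diet the groups overlapped by 1 library, 136 CPM against 137. The fold change on the control diet was 1.62 (95% interval 1.18 to 2.22, log2 0.69, SE 0.20) and the adjusted p 0.412 by the edgeR quasi-likelihood test after Benjamini-Hochberg adjustment. On the TJ-41 diet it was 1.19 (0.863 to 1.63, edgeR adjusted p = 0.785). Over both diets, model mice averaged 163 ± 28.5 CPM and control mice 117 ± 15.5 CPM (SD, n = 4), a fold of 1.38 (1.11 to 1.73, edgeR adjusted p = 0.269). The exact permutation test of 4 against 4 libraries on log2(CPM + 0.5) gave p = 0.0571, 2-sided, where the smallest possible is 0.0286. Without replicate 1 of model mice fed control diet, the log2 fold change over both diets was 0.57 and the edgeR adjusted p 0.0109, which passes the false discovery rate but not the fold threshold. Without replicate 2 the values were 0.36 and 0.191. On the control diet alone they were 0.88 and 0.0152 without replicate 1 and 0.47 and 0.251 without replicate 2, so that the gene's side of the false discovery rate threshold turned on 1 library.

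The summed level of 8 alveolar type II cell markers, which mark a cell that makes Il33 in mouse lung, ran from 18500 to 25800 CPM in control mice and from 22400 to 37500 CPM in model mice, with the highest sum in the library with the highest Il33. Of the 4 sums of model mice, those at 37500, 26700 and 28100 CPM lay above the range of control mice and that at 22400 CPM inside it. Sftpc, the surfactant protein C gene, made up 51.1% to 69.0% of the sums, and without it they ran from 8980 to 11500 CPM in control mice and from 11000 to 12700 CPM in model mice. On the control diet 4 of the 8 markers were higher in model mice and 4 lower, with a median log2 fold change of -0.01, on the TJ-41 diet all 8 were higher, with a median of 0.45, and over both diets 7 were higher and 1 lower, with a median of 0.20; 0 were called. The part of that cell type in the Il33 difference was not tested.

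For the other IL-1 family members, Il1a, Il1b and Il18, the 95% interval of the log2 fold change included 0 in each of the 7 comparisons. Il1a (chr2:129299610-129309972, minus strand), an alarm cytokine that is active without cleavage, stood at 4.70 and 4.46 CPM in control mice fed control diet, 6.19 and 6.21 CPM in control mice fed TJ-41, 4.01 and 4.66 CPM in model mice fed control diet and 5.0 and 4.39 CPM in model mice fed TJ-41. The 2 libraries of control mice fed TJ-41 were the highest of the 8. Its fold between model mice and control mice was 0.758 on the TJ-41 diet (95% interval 0.515 to 1.11, edgeR adjusted p = 0.784), where the groups did not overlap, and 0.947 on the control diet (0.641 to 1.40), where they did. An exon of Il1a overlaps Gm14023 on the other strand and 9.14% of its 50-base stretches are shared with other genes; since the strand setting of the counting is not given in the sources used here, reads of the pair cannot be told apart.

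Il1b (chr2:129364570-129371139, minus strand), made mainly by myeloid cells and cleaved by caspase-1, had libraries that lay farther apart in model mice than in control mice. It stood at 18.0 and 22.1 CPM in control mice fed control diet and at 21.3 and 22.0 CPM in control mice fed TJ-41. In model mice it reached 28.3 and 14.5 CPM on the control diet and 14.8 and 34.9 CPM on the TJ-41 diet. Each group of model mice thus held 1 library below and 1 above all control mice. The SD over 4 libraries was 10.2 CPM in model mice and 1.92 CPM in control mice, and the fold between their means was 1.11 (95% interval 0.708 to 1.73, edgeR adjusted p = 0.864). Il1b has an antisense partner, Il1bos, whose exon overlaps it.

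Neutrophil marker genes moved beside Il1b in model mice but not in control mice. The summed level of 10 neutrophil markers was 182 and 144 CPM in control mice fed control diet, 219 and 139 CPM in control mice fed TJ-41, 191 and 83.1 CPM in model mice fed control diet and 132 and 310 CPM in model mice fed TJ-41. In both groups of model mice the library with more Il1b had the larger neutrophil sum, and the lowest and highest of all 8 sums fell in the libraries with the lowest and highest Il1b. In control mice the order was the reverse in both groups. Csf3r, the receptor for G-CSF carried by neutrophils and singled out here after its values were seen, was at 52.0 and 15.8 CPM in model mice fed control diet and at 37.0 and 74.8 CPM on the TJ-41 diet. Of the 10 neutrophil markers, 8 were tested and 0 were called in any comparison. S100a9, at 26.2 to 144 CPM, and S100a8, at 12.7 to 83.8 CPM, had the highest levels of the 10. The share of neutrophils in the Il1b values was not tested.

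**Figure D3:**
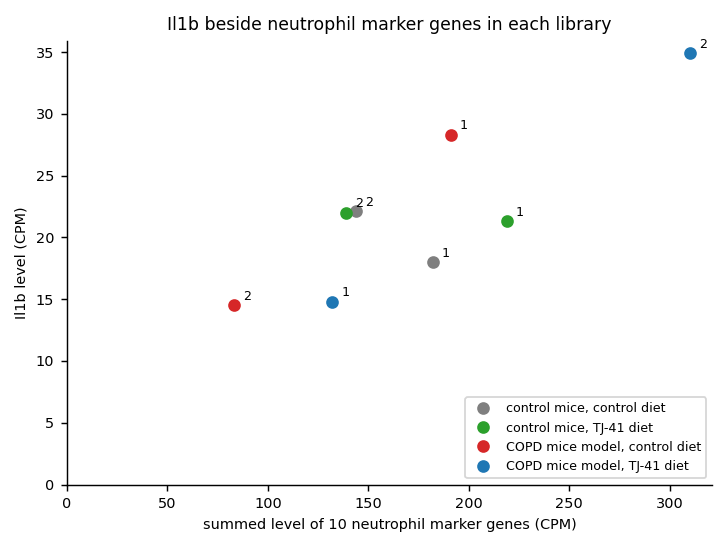
The vertical axis is the level of Il1b and the horizontal axis the summed level of 10 neutrophil marker genes, both in CPM and both starting at 0; each point is 1 library, coloured by group and numbered by replicate. The 4 libraries of model mice run from 83.1 and 14.5 CPM at the lower left to 310 and 34.9 CPM at the upper right, and those of control mice lie between.

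Il18 (chr9:50554827-50581840, plus strand), which caspase-1 also matures and which induces interferon-γ, stood at 23.3 and 18.1 CPM in control mice fed control diet, 16.9 and 17.0 CPM in control mice fed TJ-41, 18.4 and 13.8 CPM in model mice fed control diet and 14.7 and 20 CPM in model mice fed TJ-41. Model mice and control mice overlapped on both diets. Its fold over both diets was 0.895 (95% interval 0.688 to 1.16, edgeR adjusted p = 0.737).

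Tnf and Il6, the acute cytokines, were few in counts, with 27 to 72 counts of Tnf and 10 to 28 counts of Il6 per library. Tnf (chr17:35199381-35202007, minus strand) stood at 2.04 and 1.40 CPM in control mice fed control diet, 2.20 and 2.16 CPM in control mice fed TJ-41, 2.19 and 3.69 CPM in model mice fed control diet and 2.03 and 1.69 CPM in model mice fed TJ-41. On the control diet model mice were above control mice without overlap, and on the TJ-41 diet they were below them without overlap. Such a turn between diets, in this order or the other, was found for 1 of the 9 tested cytokine genes and 4.59% of all genes. Read across the diets, TJ-41 libraries were above control diet libraries in control mice and below them in model mice. A turn of this kind, in either order, was again found for 1 of the 9 and for 5.31% of all genes. The folds were 1.71 (95% interval 0.958 to 3.04, edgeR adjusted p = 0.684) and 0.853 (0.476 to 1.53, edgeR adjusted p = 0.871). Without replicate 2 of model mice fed control diet the log2 fold change on the control diet was 0.35, and without replicate 1 it was 1.09, with edgeR adjusted p values of 0.696 and 0.0648.

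Il6 (chr5:30013114-30019981, plus strand), which signals through gp130 to STAT3, stood at 0.784 and 1.19 CPM in control mice fed control diet, 0.614 and 1.19 CPM in control mice fed TJ-41, 0.99 and 1.43 CPM in model mice fed control diet and 0.521 and 0.613 CPM in model mice fed TJ-41. Model mice fed TJ-41 held the 2 lowest libraries of the 8, the nearer of them by 0.613 against 0.614 CPM. Counting error alone gives a relative SD of 31.6% at 10 counts. The fold between model mice and control mice was 1.23 on the control diet (95% interval 0.59 to 2.55) and 0.634 on the TJ-41 diet (0.286 to 1.40), with edgeR adjusted p values of 0.946 and 0.785. Without replicate 2 of model mice fed control diet the log2 fold change on that diet was 0.0033.

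Among the colony-stimulating factors, Csf1 (chr3:107741048-107760469, minus strand), the growth factor of monocytes and tissue macrophages, separated the 4 libraries of model mice from the 4 of control mice. Its level was 71.0 and 84.0 CPM in control mice fed control diet, 84.7 and 67.8 CPM in control mice fed TJ-41, 88.7 and 98.8 CPM in model mice fed control diet and 84.8 and 96.4 CPM in model mice fed TJ-41. All 4 libraries of model mice lay above all 4 of control mice, the nearest pair by 84.8 against 84.7 CPM, a pattern that 3.35% of all genes tested showed in this direction and 3.43% in the other; no further cytokine gene showed it in either. The means were 92.2 ± 6.54 and 76.8 ± 8.74 CPM (SD, n = 4), a fold of 1.20 (95% interval 0.984 to 1.46, edgeR adjusted p = 0.518). The exact permutation test gave p = 0.0286, the smallest that 4 against 4 libraries allow, before any correction for the 10 genes so tested.

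Csf2 (chr11:54247271-54249667, minus strand), whose product GM-CSF is made by alveolar type II cells, stood at 2.25 and 2.23 CPM in control mice fed control diet, 2.81 and 2.43 CPM in control mice fed TJ-41, 2.34 and 3.33 CPM in model mice fed control diet and 3.07 and 2.5 CPM in model mice fed TJ-41. The 2 libraries of control mice fed control diet were the lowest of the 8. The fold was 1.27 on the control diet (95% interval 0.774 to 2.07) and 1.06 on the TJ-41 diet (0.652 to 1.73), with edgeR adjusted p values of 0.885 and 0.945. An exon of Csf2 overlaps Gm12223 on the other strand, with 6.39% of its 50-base stretches shared.

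Csf3 (chr11:98701263-98703629, plus strand), which drives the release of neutrophils from marrow, was barely detected, with 10 counts in 8 libraries. There were 0 counts in both libraries of control mice fed control diet, 1 and 2 in control mice fed TJ-41, 0 and 5 in model mice fed control diet and 1 and 1 in model mice fed TJ-41. A count of 0 allows up to 3 counts, or 0.153 to 0.162 CPM across libraries, a floor that covers counting error only. No difference of Csf3 was detectable at this depth, and the exact permutation test of model mice against control mice gave p = 0.543.

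Tgfb1 (chr7:25687002-25705077, plus strand) stood at 58.1 and 54.9 CPM in control mice fed control diet, 46.4 and 39.6 CPM in control mice fed TJ-41, 41.1 and 62.5 CPM in model mice fed control diet and 55.0 and 54.3 CPM in model mice fed TJ-41. On the TJ-41 diet model mice lay above control mice without overlap, by a fold of 1.27 (95% interval 0.917 to 1.76, edgeR adjusted p = 0.783), and on the control diet its 2 libraries fell on either side of control mice, with a fold of 0.918 (0.663 to 1.27).

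Counted over the tested genes, the libraries of model mice and control mice did not overlap for 4 genes that were higher in model mice on the control diet, namely Tnf, Il33, Csf1 and Csf2, and for 0 that were lower, where 13.6% and 14.1% of all genes did so. On the TJ-41 diet it was 2 higher, Csf1 and Tgfb1, and 3 lower, Il6, Tnf and Il1a, where 28.5% and 27.9% of all genes did so.

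Much of the height of model mice fed control diet came from 1 library. Replicate 2 of that group was the highest of the 8 libraries for 7 of the 10 genes, namely Il6, Tnf, Il33, Csf1, Csf2, Csf3 and Tgfb1, and the lowest for Il18 and Il1b. For 29.2% of all genes tested the highest value lay in this library, and for 28.2% the lowest, so it was the extreme library for genes in general. Saa3, an acute-phase gene singled out after its values were seen, was at 57.8 CPM there and at 1.56 to 7.71 CPM in the other 7 libraries. Without this library, the log2 fold changes on the control diet were 0.47 for Il33, 0.35 for Tnf, 0.20 for Csf1, 0.07 for Csf2 and -0.45 for Tgfb1, with edgeR adjusted p from 0.222 to 0.945.

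**Figure D4:**
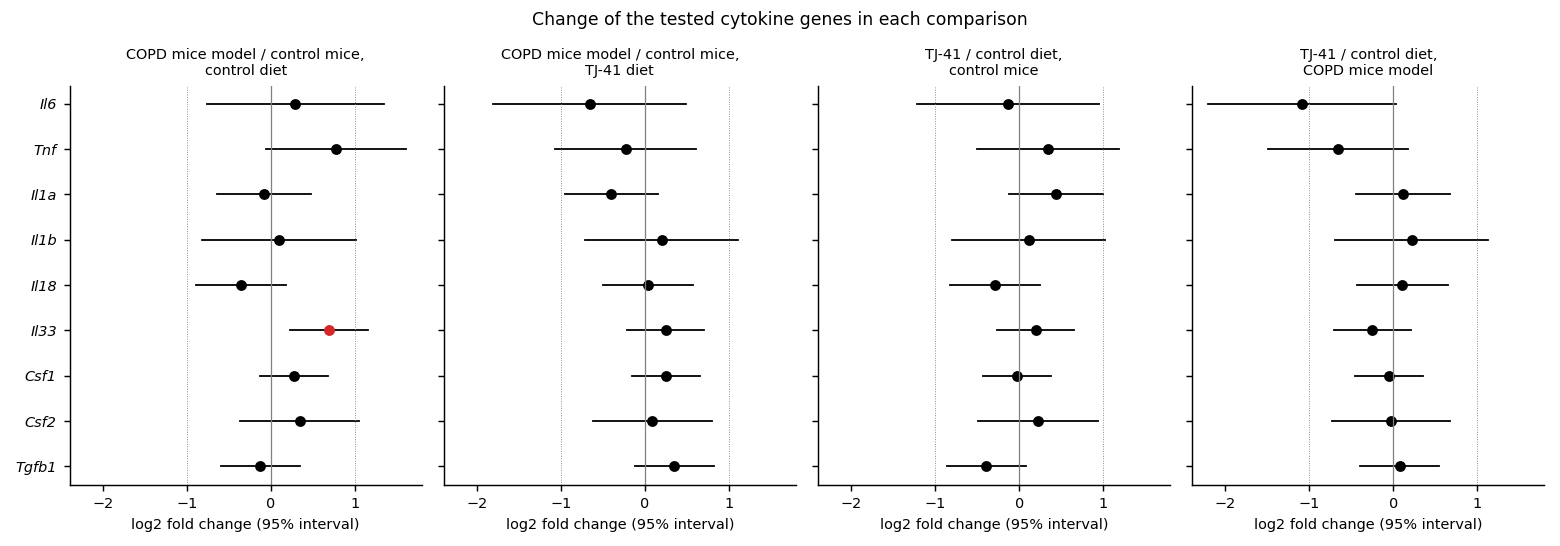
The 4 panels compare model mice with control mice on each diet and TJ-41 with control diet in each kind of mouse, with the log2 fold change of the 9 tested genes on the horizontal axis, a point for the edgeR estimate and a line for its 95% interval; dotted lines mark a log2 fold change of 1 either way. Within these 4 panels 1 point is drawn in red, at an unadjusted p under 0.05, namely Il33 at 0.69 for model mice on the control diet, and all other intervals cross 0.

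The second question was whether the TJ-41 diet changed the cytokine genes. After Benjamini-Hochberg adjustment of the edgeR quasi-likelihood test, 0 of the 9 tested genes were called in control mice, in model mice or over both, and 0 had an unadjusted p under 0.05. DESeq2 called 0 as well. Of all genes, 0.0% were called in control mice, 0.00487% in model mice and 0.0% over both, and 1.64%, 4.1% and 2.48% had an unadjusted p under 0.05. The acute cytokines had the largest estimates in model mice, where both libraries of the TJ-41 diet lay below both of the control diet for Il6 and Tnf, as they did for 14.9% of all genes. The fold on the TJ-41 diet was 0.471 for Il6 (95% interval 0.217 to 1.02, edgeR adjusted p = 0.991) and 0.633 for Tnf (0.356 to 1.12, edgeR adjusted p = 0.991). Without replicate 2 of model mice fed control diet the log2 fold changes were -0.80 and -0.24. Markers of other cells moved in the same comparison, with 0 called: 6 of 6 cardiac muscle markers were lower on the TJ-41 diet at an unadjusted p under 0.05 (median -1.17, sums of 476 and 626 CPM against 282 and 232 CPM). All 5 tested airway epithelium markers (median -0.38), all 7 T and NK cell markers (median -0.45) and all 4 tested mast cell and basophil markers (median -0.18) were lower. All 7 fibroblast markers (median 0.23) and 7 of 8 tested neutrophil markers (median 0.85) were higher. The remaining marker lists had members on both sides. The part of these cells in the Il6 and Tnf values was not tested. Il33 was at a fold of 0.839 (0.611 to 1.15) on the TJ-41 diet in model mice, and Csf1 and Csf2 were at 0.966 (0.731 to 1.28) and 0.983 (0.604 to 1.60).

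In control mice the TJ-41 diet went with a fold of 0.761 for Tgfb1 (95% interval 0.549 to 1.05, edgeR adjusted p = 0.996) and of 1.35 for Il1a (0.92 to 1.99, edgeR adjusted p = 0.996). Among the 9 tested genes, libraries did not overlap for 3 higher on TJ-41, Tnf, Il1a and Csf2, and for 2 lower, Il18 and Tgfb1, each beside 19.1% of all genes. Over control mice and model mice together no tested cytokine gene separated the 4 libraries of the TJ-41 diet from the 4 of the control diet, upward or downward, where 0.647% and 0.73% of all genes did. The exact permutation p of the diet was lowest for Il6, at 0.0857.

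The difference of the diet effect between model mice and control mice was tested as an interaction. None of the 9 genes was called by edgeR or DESeq2, 0 had an unadjusted p under 0.05, and 0.0% and 3.27% of all genes did so. Tnf had the lowest p and a log2 difference of -1.0 (SE 0.52, edgeR adjusted p = 0.999). Il6 was at -0.95 (SE 0.69), Il33 at -0.45 (SE 0.29) and Tgfb1 at 0.47 (SE 0.29), all with an edgeR adjusted p of 0.999. With 2 libraries a group, the intervals allow a diet effect on Tnf in model mice from 0.22 to 1.13 times that in control mice.

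The genes that the cytokines connect to were read from 8 lists. Receptors and antagonists numbered 20, all tested, and 0 were called over both diets, with 8 higher and 12 lower in model mice and a median log2 fold change of -0.06. The lowest p values were those of Il18r1, a subunit of the IL-18 receptor, at -0.57 (SE 0.15, edgeR adjusted p = 0.201), and Il1rn, the IL-1 receptor antagonist, at -0.52 (SE 0.18, edgeR adjusted p = 0.348). Il18r1 ran from 157 to 231 CPM in control mice and from 104 to 155 CPM in model mice, without overlap, and Il1rn from 9.29 to 12.8 and from 6.04 to 10.9 CPM, with overlap. Relatives of the 10 cytokines, such as other IL-6 and TGF-β family members, numbered 17, of which 12 were tested and 0 called, with a median of -0.04. Lif, a cytokine of the IL-6 family, was at -0.70 (SE 0.22, edgeR adjusted p = 0.288) and Osm, another, at 0.61 (SE 0.23, edgeR adjusted p = 0.403), so that the pair lay on opposite sides of 0.

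Genes of maturation and release, the inflammasome and the machinery that frees TGF-β and TNF, numbered 18, with 0 called, 10 higher, 8 lower and a median of 0.08. Those at an unadjusted p under 0.05 were 2 higher and 3 lower, beside 10.4% of all genes in either direction. Ltbp2, a matrix protein of the latent TGF-β binding family, was at 1.21 (SE 0.32, edgeR adjusted p = 0.196). Its libraries lay far apart in model mice fed control diet, at 104 and 333 CPM, and its estimate ran from 0.68 to 1.51 over the 14 alternatives. Itgb8, the integrin subunit that activates latent TGF-β, was at 1.00 (SE 0.22, edgeR adjusted p = 0.108). Itgb8 ran from 2.25 to 3.51 CPM in control mice and from 4.69 to 6.74 CPM in model mice, without overlap. Itgb6, the epithelial integrin subunit that also activates TGF-β, averaged 79.4 CPM in control mice and 51.6 CPM in model mice (log2 -0.63), and Thbs1, thrombospondin 1, 547 and 232 CPM (log2 -1.23), both chosen here after their values were seen. The TGF-β response list of 11 genes had 0 called and a median of 0.03, its lowest p values being those of Tgfbi, a matrix protein, at 0.24 (SE 0.14, edgeR adjusted p = 0.576), and Fn1, fibronectin, at 0.34 (SE 0.21, edgeR adjusted p = 0.61).

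Of 15 genes that respond to TNF and IL-1, 1 was called over both diets, beside 0.443% of all genes, with 8 higher, 7 lower and a median of 0.12. At an unadjusted p under 0.05 there were 4 higher and 3 lower, beside 10.4% of all genes in either direction. The gene called was Ccl20, a chemokine for dendritic cells and lymphocytes made by airway epithelium. Its level was 0.627 and 0.83 CPM in control mice fed control diet, 1.18 and 1.62 CPM in control mice fed TJ-41, 4.32 and 9.01 CPM in model mice fed control diet and 2.81 and 2.30 CPM in model mice fed TJ-41. All 4 libraries of model mice lay above the 4 of control mice. Ccl20 rose by 2.03 on the log2 scale over both diets (SE 0.31, edgeR adjusted p = 0.0272) and by 3.18 on the control diet (SE 0.45, edgeR adjusted p = 0.0465), and on the TJ-41 diet it stood at 0.87 (SE 0.42, edgeR adjusted p = 0.773). The difference between the diets was -2.31 (SE 0.61) and did not pass the test (edgeR adjusted p = 0.999). The log2 fold change stayed from 1.72 to 2.24 over both diets and from 2.56 to 3.61 on the control diet in all alternatives run. The call was lost in 5 of 14 alternatives over both diets, with adjusted p from 6.64e-06 to 0.205, and in 9 of 15 on the control diet, with adjusted p from 9.5e-07 to 0.476. Over both diets it was lost without replicate 1 or 2 of control mice fed control diet (adjusted p = 0.185 and 0.14), without replicate 1 or 2 of control mice fed TJ-41 (0.205 and 0.16) and without replicate 1 of model mice fed TJ-41 (0.111), and it held without either library of model mice fed control diet. On the control diet it was lost without any one of the 4 control libraries or of the 2 libraries of model mice fed TJ-41 (adjusted p from 0.0584 to 0.476), with the replicate block (0.0663), with a filter at a mean of 1 CPM (0.0552) and with only the groups compared (0.134). Vcam1, an endothelial adhesion molecule, passed the false discovery rate over both diets at -0.76 (SE 0.11, edgeR adjusted p = 0.0184) but not the fold threshold, with 147 to 169 CPM in control mice and 93.3 to 97.5 CPM in model mice.

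The IL-6 and STAT3 response list of 10 genes had 0 called, with 7 higher, 3 lower and a median of 0.15. Lcn2, an iron-binding acute-phase protein, was at 1.75 (SE 0.40, edgeR adjusted p = 0.126), running from 92.3 to 140 CPM in control mice and from 193 to 889 CPM in model mice, the highest value again in replicate 2 on the control diet. Leaving out that library gave Lcn2 a log2 fold change of 1.02 and leaving out replicate 1 of the same group 2.11, the lowest and highest of the 14 alternatives. In both fits that group held 1 library and added no spread of its own, so no call was read from them. Junb, an AP-1 subunit, was at 0.60 (SE 0.16, edgeR adjusted p = 0.198). Of 10 genes under GM-CSF in alveolar macrophages 0 were called in the main fit, with a median of -0.10 and members on both sides. Chil3 was at 1.31 (SE 0.24, edgeR adjusted p = 0.0586) and Siglecf, a lectin of resident alveolar macrophages, at -1.19 (SE 0.31, edgeR adjusted p = 0.188). Over the 14 alternatives Chil3 ran from 0.97 to 1.54 and Siglecf from -1.69 to -0.89, each on both sides of the fold threshold. Of 7 genes of lymphoid cells that respond to IL-33, 6 were tested and 0 called, with a median of 0.22; Arg1 was at 0.93 (SE 0.29) and Il9r at 0.82 (SE 0.26), both with an edgeR adjusted p of 0.29. In the diet comparisons and the interaction 0 genes of the 8 lists were called. Over control mice and model mice, 3 of the 9 tested cytokine genes were estimated higher on the TJ-41 diet, beside 49.8% of all genes. The same held for 0 of 10 genes of the IL-6 and STAT3 response, 2 of 12 relatives, 5 of 15 of the TNF and IL-1 response, 3 of 11 of the TGF-β response, 2 of 6 of the IL-33 list, 6 of 10 of the GM-CSF list, 11 of 18 of maturation and release and 16 of 20 receptors and antagonists. The medians of these lists ran from -0.17 for the relatives to 0.10 for the receptors and antagonists, beside -0.0011 for all genes, and 1 gene of the 8 lists, in the IL-33 list, had an unadjusted p under 0.05.

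**Figure D5:**
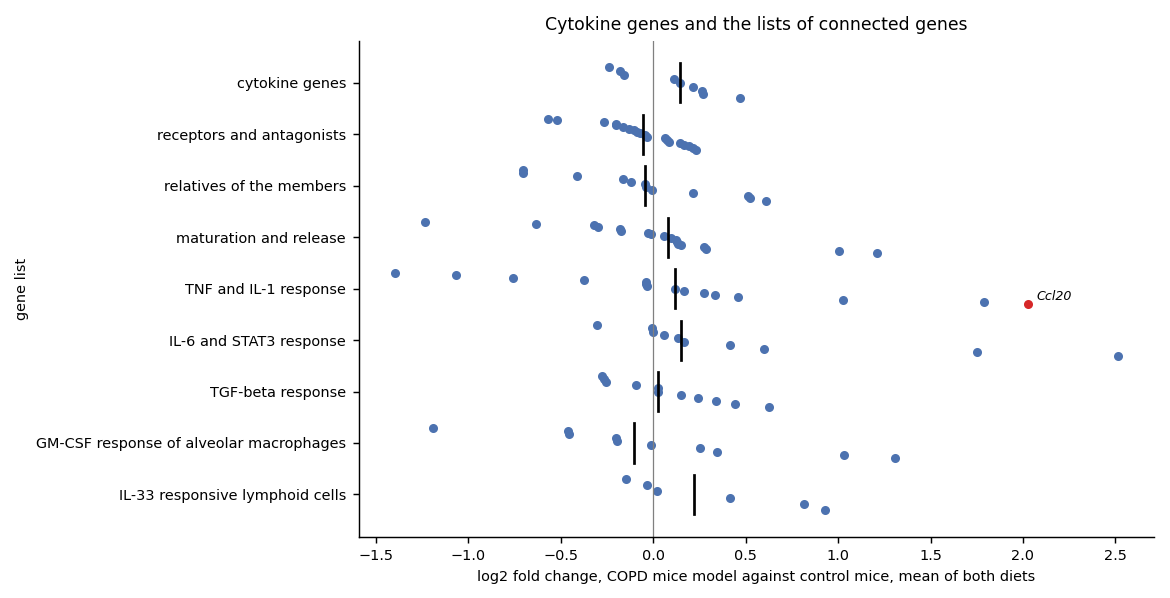
The horizontal axis is the log2 fold change of model mice against control mice over both diets, and each row is a list, with 1 point per tested gene and a black line at the median. The 9 tested cytokine genes lie in a narrow band up to 0.47, and the only gene called, Ccl20 in red, lies at 2.03 in the TNF and IL-1 response list.

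Markers of alveolar macrophages, the cells that need GM-CSF to mature, summed to 646 to 801 CPM in control mice and to 981 to 1620 CPM in model mice, without overlap. Of these 8 markers 0 were called, and their median log2 fold change was 0.11. Chil3 alone made up 371 to 475 CPM of the sum in control mice and 624 to 1390 CPM in model mice, and 3 of the 8 markers, Chil3, Siglecf and Ear2, also belong to the GM-CSF list. Without Chil3 the sums overlapped, at 265 to 356 CPM in control mice and 235 to 382 CPM in model mice, and 4 of the 8 markers were higher and 4 lower, 2 and 3 of them at an unadjusted p under 0.05. The part of macrophage number in the Csf1 values was not tested. Monocyte and interstitial macrophage markers summed to 353 to 432 CPM in control mice and 394 to 445 CPM in model mice. Of these 8 markers 5 were higher in model mice over both diets, 3 of them at an unadjusted p under 0.05, beside 10.4% of all genes in either direction. The other 3 were lower, the median was 0.37 and 0 were called. Over both diets 0 of 7 T and NK cell markers were called and 1 of 6 of B and plasma cells, Jchain, beside 0.443% of all genes. Of the 7 T and NK cell markers 5 were higher, 4 of them at an unadjusted p under 0.05, beside 10.4% of all genes in either direction. The other 2, Ncr1 and Gzma, were lower, at -0.65 and -0.55, and the median of the 7 was 0.45.

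For the 3 genes that varied over 2-fold between libraries at a mean of at least 1 CPM, the most similar profiles among 18053 genes were found by the root mean square of the difference of centred log2 levels over the 8 libraries. For Il33 these were Slc46a3 at 0.0843 and Gm15441 at 0.0885, for Tnf Cidea at 0.0887 and Sp3os at 0.0977, and for Il1b Gykl1 at 0.174 and Veph1 at 0.19. The profiles of Il33, Tnf and Il1b themselves varied by 0.298, 0.306 and 0.398 on that scale. The Il1b profile was thus matched less closely than those of Il33 and Tnf.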

How the data were processed

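RNA of mouse lung was extracted with the RNeasy Mini Kit and sequenced in 8 libraries, and groups were taken from the deposited sample labels, whose titles write TJ41 and whose characteristics write TJ4. The authors deposited raw read counts per Ensembl gene, aligned to mm10 (GRCm38) per the file headers. HISAT2 and edgeR are named in the submitters' processing notes and CLC Genomics Workbench in the study's methods. The counting program, annotation release, strand setting and treatment of multiply mapped reads are not given in the sources used here, so overlapping and near-identical genes may share reads.

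Symbols and positions came from GENCODE M21 for 52489 of 52636 identifiers, and the other 147 held 0.0198% of counts. The members and gene lists were chosen with earlier results of these data known. With edgeR 4.0.16 (R 4.3.3), filterByExpr (minimum count 10, minimum total 15) and TMM scaling preceded a quasi-likelihood fit of 4 group means to all 8 libraries, tested on simulated counts beforehand. P-values were adjusted by Benjamini-Hochberg over 20546 genes, and calls needed a false discovery rate under 0.05 together with an absolute log2 fold change over 1. The fitted biological coefficient of variation was 0.2081. Exact permutation tests compared 4 with 4 libraries over 70 splits on log2(CPM + 0.5). Levels per length used merged exon bases. No library was a copy of its pair, since replicates differed by 11.9 to 88.1 times the counting variance on average. The labels give no batch.

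Every cytokine gene was named. From each other list the called genes and the 2 with the lowest unadjusted p over both diets were named, together with the 2 most similar profiles of each cytokine gene that varied over 2-fold at a mean of at least 1 CPM. Alternatives were DESeq2 1.42.0, relative log expression scaling, library size alone, 2 other filters, a replicate block, only the groups compared, no fold threshold, and each library left out, where the lone library of a group is taken to vary like those of the other groups. Promoter sequences came from RefSeq GRCm38.p6. Protein sequences were not used here.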

Additional observations from a re-analysis of the deposited data

Results flagged for a closer look

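Tnf was singled out because its libraries moved in opposite directions in 2 ways. The COPD mice model (model mice) lay above control mice on the control diet and below them on the TJ-41 diet, with no overlap in either case, which 4.59% of all genes also did in one order or the other. Likewise the TJ-41 diet went with higher Tnf in control mice and lower Tnf in model mice without overlap, a turn that 5.31% of all genes showed in one order or the other. Both come to the same interaction, a log2 difference of -1.0 (SE 0.52), which did not pass the test (adjusted p = 0.999 by the edgeR quasi-likelihood test after Benjamini-Hochberg adjustment). Leaving out 1 library at a time or changing the settings kept it between -1.32 and -0.57, and it was -0.57 without replicate 2 of model mice fed control diet, which had the highest Tnf.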

How the results depend on the processing

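No cytokine gene was called in any of the 7 comparisons under 109 alternative counts, and 0 of 911 refitted changes passed both thresholds; the lowest adjusted p was 0.0109, for Il33 over both diets without replicate 1 of the model mice fed control diet. With the replicate block 0 of the cytokine genes were called in each comparison. The replicate numbers did not pair the libraries, since the correlations of replicate differences between groups ran from -0.234 to 0.108. Fits of only the groups compared were not run for the means over both diets or over all mice and the interaction, into which every group enters. With library size alone, the log2 diet effect on Csf2 in model mice was 0.031 and the interaction of Csf1 0.032, each turned in sign from an estimate near 0. With 2 libraries a group, leaving out 1 turned the sign of 30 estimates, none of them called; their log2 ranges over the 8 fits were as follows. For model against control mice fed control diet, Il1a from -0.19 to 0.020, Il1b from -0.47 to 0.50, Tgfb1 from -0.45 to 0.14 and Fn1 from -0.10 to 0.96. For model against control mice fed TJ-41, Il1b from -0.54 to 0.69, Il18 from -0.19 to 0.25, Csf2 from -0.063 to 0.24, Il1rn from -0.44 to 0.045 and Osm from -0.17 to 0.47. For model against control mice over both diets, Il6 from -0.38 to 0.082, Il1b from -0.23 to 0.39 and Tgfb1 from -0.049 to 0.25. For the diet in control mice, Il6 from -0.68 to 0.25, Il1b from -0.031 to 0.26 and Csf1 from -0.20 to 0.13. For the diet in model mice, Il1b from -0.53 to 0.78, Il18 from -0.12 to 0.33, Csf1 from -0.14 to 0.043, Csf2 from -0.25 to 0.25 and Tgfb1 from -0.19 to 0.41. For the diet over both, Tnf from -0.33 to 0.048, Il1b from -0.21 to 0.44, Il18 from -0.21 to 0.017, Il33 from -0.13 to 0.077, Csf1 from -0.12 to 0.047, Csf2 from -0.017 to 0.23 and Tgfb1 from -0.30 to 0.0029. For the interaction, Il1b from -0.63 to 0.68, Csf1 from -0.17 to 0.16 and Csf2 from -0.47 to 0.029.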
